A study of Mus musculus with 20 samples.

Results

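The genes described here are *Cdh1*, which encodes E-cadherin, and 9 integrin subunit genes: *Itgae* and *Itgb7*, whose products pair as integrin αEβ7, *Itgb1*, *Itga2*, *Itga5* and *Itga9*, and *Itgav*, *Itgb6* and *Itgb8*. They were taken by gene name from a table of 53380 genes, so they are 10 of 53380, and all 10 were measured in each of the 20 RNA-seq libraries. The libraries came from 5 populations sorted from the dorsal epidermis of mice: 5 libraries of dendritic epidermal T cells (DETCs, α6-Sca1lowThy1+), 4 of hair follicle stem cells (HFSCs, α6+Sca1-CD34+), 4 each of α6+Sca1+Thy1hi and α6+Sca1+Thy1- keratinocytes, and 3 of α6+Sca1+Thy1hiYFP+ keratinocytes. The last 3 populations are called Thy1hi, Thy1- and Thy1hiYFP+ cells below.

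The methods name wild-type C57BL/6J mice of 8 weeks as the source of the first 4 populations. YFP+ cells were sorted from induced Thy1-CreERT2;R26EYFP mice, and the time from induction to this sort is not given in the sources used here. In that line back-to-back *Thy1* promoters drive the inducible Cre, so YFP marks cells in which that transgene was active and their descendants. The sample labels instead give the genotype Thy1.2CreERT2-Rosa26-EYFP and no treatment for every sample, with ages from 8 to 27 weeks, and name the YFP+ and the DETC samples as Sca1-negative. Some figure legends of the study give pooled mice for the sort and others a number of mice per population, so how many mice a library stands for is unclear, and the spread between libraries may be technical. The text accompanying the series gives 2 batches without assigning samples to them, so batch and population cannot be told apart. Of the DETC libraries, 2 carry column numbers that match no label and are called a and b.

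Integrins are receptors made of an α and a β chain that attach cells to matrix or to other cells. E-cadherin holds neighbouring keratinocytes together at adherens junctions, and it is the ligand of αEβ7, the integrin that intraepithelial T cells carry. The β1 chain pairs with α2 to bind collagen, with α5 to bind fibronectin and with α9 to bind tenascin-C and osteopontin, while αvβ6 and αvβ8 bind latent TGF-β and activate it.

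The promoters of several of these genes are shown because *Itgb7* and *Itgav* were higher and *Itga2* and *Itgb6* lower in DETCs than in each keratinocyte population, and because *Itgb1* holds a match in its window. RefSeq promoters on GRCm38.p6 were found for 8 of the 10 genes, not for *Itgae* and *Cdh1*. Each run is 120 bases, 5′ to 3′ on the strand of the gene, and ends just before the outermost annotated transcript start. Capitals mark the 1 motif match that lies in a printed window.
Itgb7 (chr15:102231945-102232064, minus strand): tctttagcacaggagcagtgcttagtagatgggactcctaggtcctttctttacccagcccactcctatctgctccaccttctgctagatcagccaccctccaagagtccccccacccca
Itgav (chr2:83724277-83724396, plus strand): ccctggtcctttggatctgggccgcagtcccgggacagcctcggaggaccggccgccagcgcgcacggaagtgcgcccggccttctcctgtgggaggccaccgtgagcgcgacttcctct
Itga2 (chr13:114932101-114932220, minus strand): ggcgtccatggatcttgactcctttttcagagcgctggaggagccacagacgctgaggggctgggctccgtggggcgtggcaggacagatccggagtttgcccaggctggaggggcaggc
Itgb6 (chr2:60722644-60722763, minus strand): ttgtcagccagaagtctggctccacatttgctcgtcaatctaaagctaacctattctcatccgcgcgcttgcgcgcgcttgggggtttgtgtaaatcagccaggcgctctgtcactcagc
Itgb1 (chr8:128685534-128685653, plus strand): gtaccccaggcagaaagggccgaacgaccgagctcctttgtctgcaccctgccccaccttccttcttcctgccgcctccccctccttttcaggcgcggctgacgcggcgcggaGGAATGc

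In the 250 bases before each RefSeq start, 5 motifs were searched on both strands. They were a RUNX motif (TGTGGT, in 14.0% of 32851 promoters), an AP-1 motif (TGANTCA, in 6.75%), an E-box (CAGGTG, in 17.2%), a GC box (GGGCGG, in 32.7%) and a TEAD motif (GGAATG, in 12.6%). *Itgb1* held the TEAD motif, its first base 7 bases before the start, and a GC box 151 bases before it, outside the printed window. *Itga5* held 2 GC boxes, and starts of *Itgb8*, *Itga9* and *Itgb6* that lie downstream within those genes held E-boxes. The windows of *Itgb7*, *Itgav* and *Itga2* and the main window of *Itgb6* held none of these letters.

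Gene positions are those of GENCODE on GRCm38 (mm10). Marker sums set DETCs and HFSCs apart from the other populations. The levels of *Thy1* and YFP, by which Thy1hi, Thy1- and Thy1hiYFP+ cells were sorted, were not examined here. The summed level of 7 T cell markers (*Cd2*, *Cd3d*, *Cd3e*, *Cd3g*, *Cd96*, *Ptprc* and *Trdc*) was 19490 to 40340 normalized counts in DETC libraries and at most 429.4 in any other library. That of 6 HFSC markers was 5771 to 9218 in HFSCs and at most 2131 elsewhere, and that of 6 basal keratinocyte markers was 11940 to 56890 in DETCs and 70920 to 265800 elsewhere. Both lists hold a gene of the sort gate, *Cd34* and *Itga6*. Libraries held 7781256 to 12982392 reads on genes. Values are the normalized counts of the authors, that is reads divided by a size factor per library, and compare 1 gene between libraries. Levels of different genes are compared only per kilobase (kb) of exon. Differences were tested two-sided with limma on log2(normalized count + 1) over 17204 genes, adjusted by the Benjamini-Hochberg method, and are called where the adjusted p is under 0.05. The *Itga9* gene entered the test with 7 libraries at 10 or more, 4 of them DETCs. Comparisons with DETCs share the same 5 DETC libraries and are not independent of each other.

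**Figure D1:**
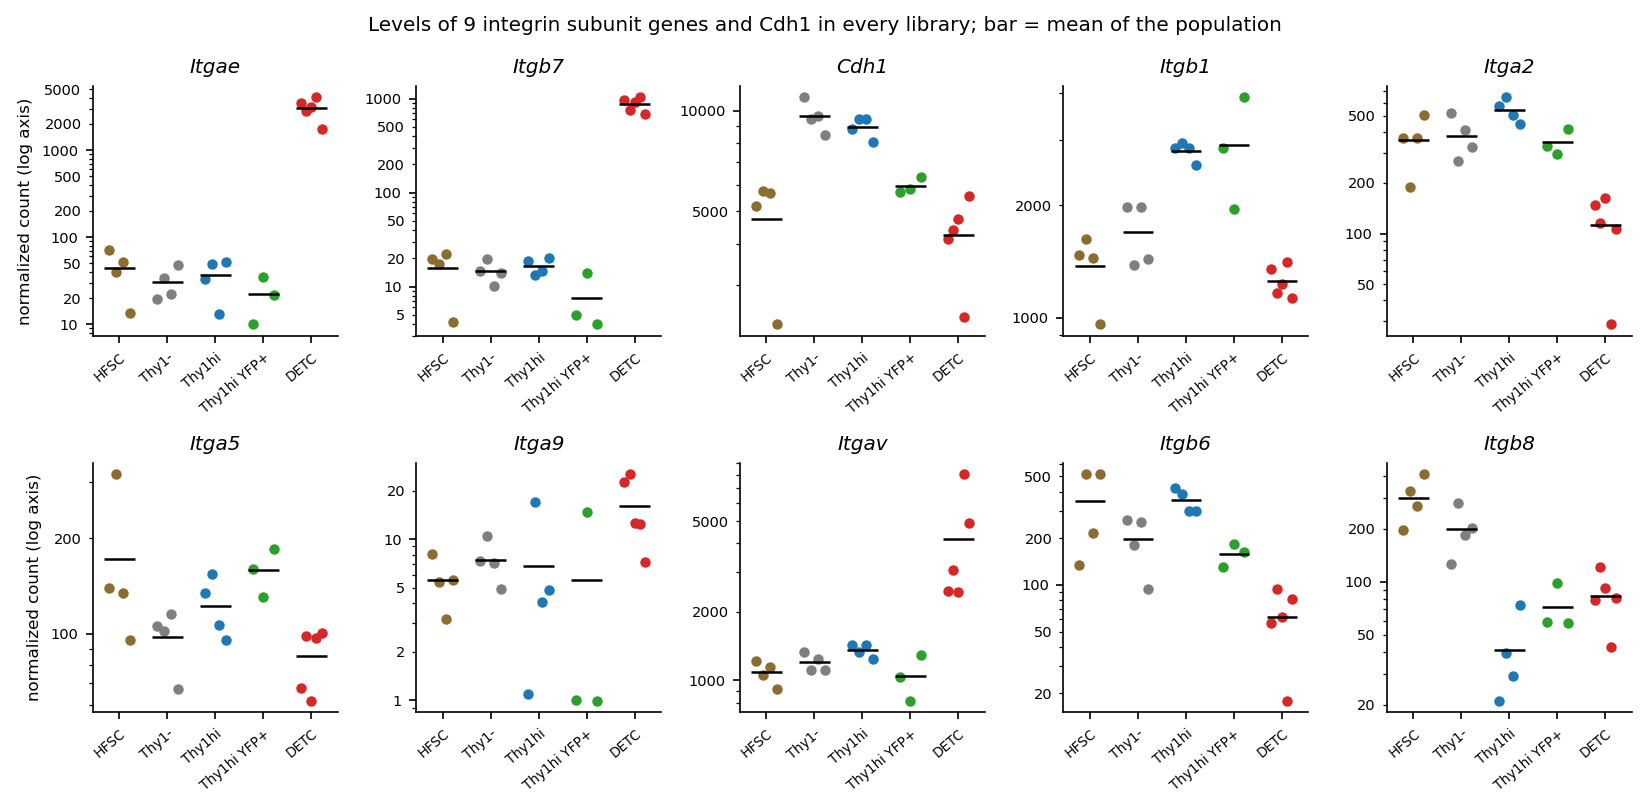
Normalized counts (log axis) of *Cdh1* and the 9 integrin subunit genes, 1 point per library and a bar at the mean of each of the 5 populations. The DETC libraries stand far above the rest at *Itgae* and *Itgb7*, and the Thy1hi libraries stand lowest at *Itgb8*, with a mean of 40.87.

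Among the 5 populations, DETCs had the highest mean of 4 genes (*Itgae*, *Itgb7*, *Itgav* and *Itga9*) and the lowest of 5. HFSCs had the highest mean of *Itga5* and *Itgb8*, Thy1hi cells of *Itga2* and *Itgb6*, Thy1hiYFP+ cells of *Itgb1* and Thy1- cells of *Cdh1*. Against Thy1hi cells, 8 of the 10 genes were called in DETCs, 4 higher and 4 lower, where 36.6% of all genes tested were called (19.9% higher and 16.6% lower). The counts were 7 against Thy1- cells (3 higher and 4 lower; 34.1% of all genes, 18.9% higher and 15.2% lower), 7 against HFSCs (3 higher and 4 lower; 39.7%, 21.2% and 18.5%) and 8 against Thy1hiYFP+ cells (4 higher and 4 lower; 38.1%, 20.5% and 17.6%). *Itgae*, *Itgb7* and *Itgav* were higher in DETCs than in each keratinocyte population, and *Itga2* and *Itgb6* were lower in DETCs than in each.

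**Figure D2:**
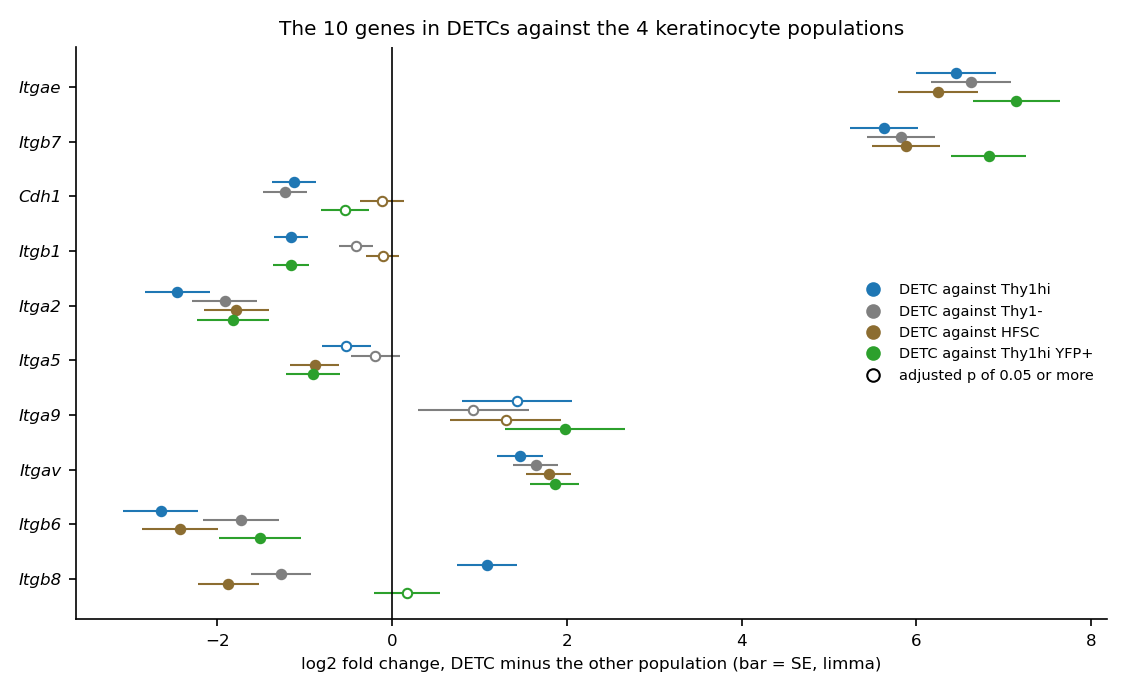
Log2 fold changes of the 10 genes in DETCs relative to each of the 4 other populations, with standard errors (limma, log2 of normalized count + 1). Filled points passed an adjusted p of 0.05. *Itgae* and *Itgb7* lie between 5.63 and 7.14, while no other gene passes 2.65 in either direction.

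*Itgae* (ENSMUSG00000005947, chromosome 11 from 73090583 to 73147446) encodes αE, the chain that recognises E-cadherin. The DETC libraries 1, 2, 3, a and b had 3493.99, 2837.24, 3110.88, 4028.31 and 1757.06 normalized counts of it. HFSC libraries 1 to 4 had 70.41, 40.19, 52.38 and 13.31, Thy1hi libraries 1 to 4 had 33.12, 48.74, 13.01 and 52.39, Thy1- libraries 1 to 4 had 19.46, 33.55, 22.09 and 47.54, and Thy1hiYFP+ libraries 1 to 3 had 9.97, 34.83 and 21.8. Every DETC library was above every keratinocyte library, and DETC b was the lowest of the DETCs. The means were 3045 ± 848 (SD, n = 5) in DETCs and 36.81 ± 17.9 (n = 4) in Thy1hi cells, an 82.7-fold difference (log2 fold change 6.45 ± 0.46 (SE), adjusted p 1.09e-09, exact permutation p 0.00794, the smallest that 5 against 4 libraries allow). The difference was 6.62 ± 0.46 relative to Thy1- cells (adjusted p 8.81e-10), 6.25 ± 0.46 relative to HFSCs (adjusted p 1.68e-09) and 7.14 ± 0.50 relative to Thy1hiYFP+ cells (adjusted p 9.37e-10).

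*Itgb7* (ENSMUSG00000001281, chromosome 15 from 102215995 to 102231935) encodes the β7 chain that completes αEβ7. DETC libraries 1, 2, 3, a and b had 962.78, 765.75, 925.75, 1031.78 and 682.17 normalized counts. Thy1hi libraries had 18.77, 13.17, 14.63 and 20.37, Thy1- libraries 14.59, 19.67, 10.25 and 13.94, HFSC libraries 19.62, 17.38, 22.45 and 4.2, and Thy1hiYFP+ libraries 4.98, 13.93 and 3.96. No keratinocyte library came near the DETCs, and the order of the DETC libraries at *Itgb7* was close to that at *Itgae*, with a highest and b lowest in both. The mean of 873.6 ± 145 in DETCs was 52.2-fold that of Thy1hi cells (16.73 ± 3.39), with a log2 fold change of 5.63 ± 0.39 (adjusted p 7.94e-10). Relative to Thy1- cells, HFSCs and Thy1hiYFP+ cells it was 5.82 ± 0.39 (adjusted p 5.15e-10), 5.88 ± 0.39 (adjusted p 4.9e-10) and 6.83 ± 0.43 (adjusted p 2.43e-10).

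Per kb of exon, DETCs had 665 normalized counts of *Itgae* and 315 of *Itgb7*, and the ratio of both within a library ran from 1.56 to 2.36 with a median of 2.19. Over the 20 libraries, log2 *Itgae* and log2 *Itgb7* had a Pearson r of 0.984, which is 0.709 over the 15 libraries without DETCs and 0.941 within the 5 DETC libraries. These correlations are descriptions, since libraries of a population share their source. In the keratinocyte populations both genes stood at shares of their DETC level like those of T cell markers. As a share of the DETC mean, the T cell marker sum was 0.58% to 1.33% in HFSC libraries, 0.832% to 1.53% in Thy1hi, 0.744% to 1.28% in Thy1- and 0.421% to 0.754% in Thy1hiYFP+ libraries. *Itgae* stood at 0.437% to 2.31%, 0.427% to 1.72%, 0.639% to 1.56% and 0.327% to 1.14% of its DETC mean in the same order. *Itgb7* stood at 0.481% to 2.57%, 1.51% to 2.33%, 1.17% to 2.25% and 0.453% to 1.59%. The part of T cell RNA in these low values was not tested. Among the 4 keratinocyte populations, no neighbours in the order of means differed at *Itgae* (adjusted p 0.713 to 0.999) or at *Itgb7* (adjusted p 0.325 to 0.948).

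The genes whose log2 levels over the 20 libraries were most like those of *Itgae* were *Ptprc* (CD45, r 0.991), *Klrk1* (the receptor NKG2D, r 0.99) and *Cd3g* (a chain of the T cell receptor complex, r 0.989), with r of 0.821, 0.846 and 0.816 without DETCs. Most like *Itgb7* were *Spn* (CD43, r 0.992), *Cd247* (CD3ζ, r 0.991) and *Pik3cd* (a phosphoinositide kinase of leukocytes, r 0.991). Mean levels in DETCs and Thy1hi cells were 10069 and 101.2 for *Ptprc*, 5318 and 57.12 for *Cd3g*, and 1432 and 14.99 for *Spn*.

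**Figure D3:**
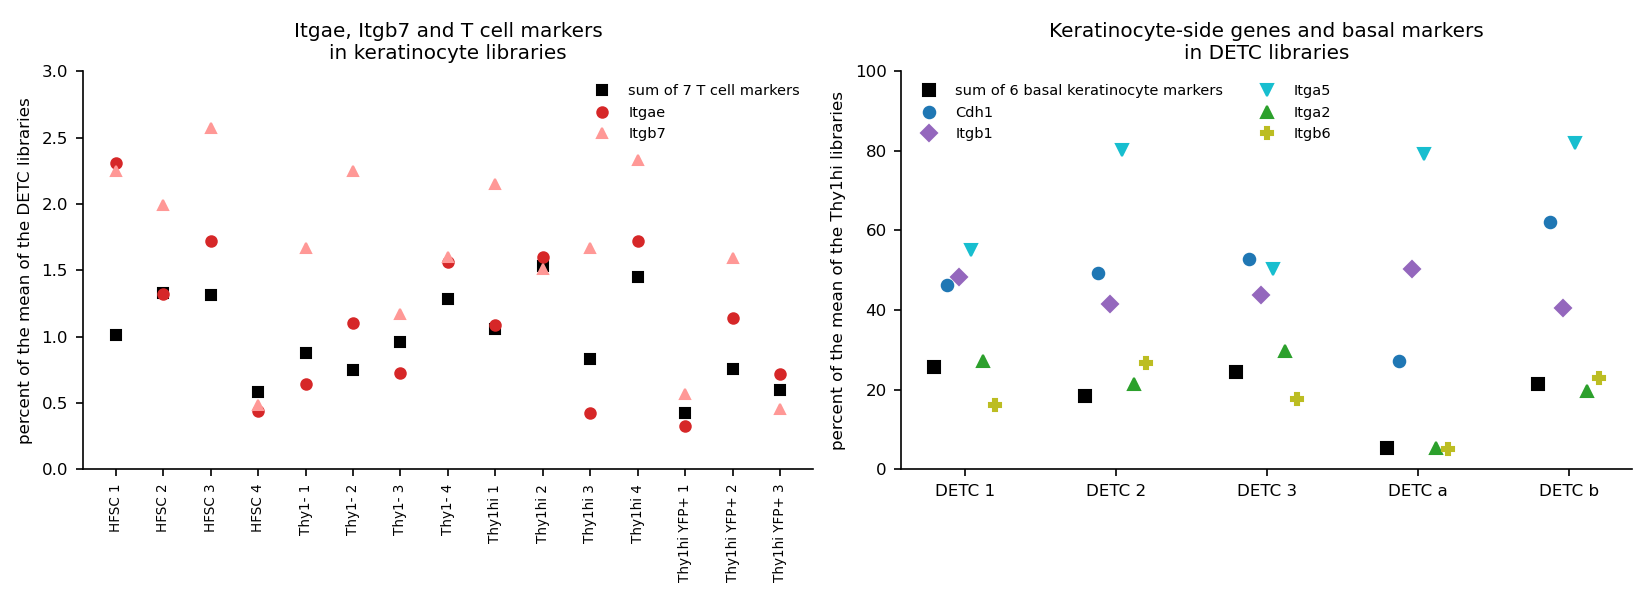
Left, *Itgae*, *Itgb7* and the sum of 7 T cell markers in each of the 15 keratinocyte libraries, as a percent of the mean of the DETC libraries, and right, 5 genes and the sum of 6 basal keratinocyte markers in each DETC library, as a percent of the mean of the Thy1hi libraries. On the left no value passes 2.57%, and on the right DETC a has the lowest marker sum (5.42%), *Cdh1* (27.1%), *Itga2* (5.3%) and *Itgb6* (5.07%) but the highest *Itgb1* (50.2%).

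*Cdh1* (ENSMUSG00000000303, chromosome 8 from 106603351 to 106670246), the E-cadherin gene, was highest in the interfollicular keratinocytes and had its lowest mean in DETCs (4242 normalized counts). Thy1- libraries 1 to 4 had 10951.34, 9433.27, 9631.99 and 8472.67 normalized counts, Thy1hi libraries 8810.87, 9442.79, 9419.65 and 8035.64, and Thy1hiYFP+ libraries 5719.68, 5812.5 and 6331.1. HFSC libraries had 5172.44, 5763.85, 5657.43 and 2292.58, and DETC libraries 1, 2, 3, a and b had 4121.17, 4399.25, 4723.63, 2418.91 and 5545. Thy1- and Thy1hi libraries overlapped each other and lay above all others, the Thy1hiYFP+ libraries lay between them and the DETCs, and the lowest values were those of HFSC replicate 4 and DETC a.

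Relative to Thy1hi cells (8927 ± 663), *Cdh1* was lower in DETCs (4242 ± 1150), with a log2 fold change of -1.12 ± 0.25 (adjusted p 0.00136, exact permutation p 0.00794). The value relative to Thy1- cells (9622 ± 1020) was -1.23 ± 0.25 (adjusted p 0.000747). Against HFSCs (4722 ± 1640) DETCs were not called (-0.12 ± 0.25, adjusted p 0.742), nor against Thy1hiYFP+ cells (5954 ± 329, -0.54 ± 0.27, adjusted p 0.132), although those libraries did not overlap. The difference from HFSCs ran from -0.43 without HFSC replicate 4 to 0.07 without DETC a. DETC and HFSC libraries with the same replicate number deviated together (r 0.171 to 0.333 in 3 pairs), but the 17 combinations of different numbers ran from -0.318 to 0.371, with the highest above every pair, so the pairing is uncertain. With the replicate number as a block, which uses 3 libraries of each population, 9 of the 10 genes were called between DETCs and HFSCs, where 42.2% of all genes were, among them *Cdh1* (-0.33, adjusted p 0.0248) and *Itga9* (1.70, adjusted p 0.0128). That fit leaves out HFSC replicate 4 and DETC a and b, and so the libraries lowest in *Cdh1*. The effect of the block and that of leaving them out cannot be told apart in it.

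Transcripts of keratinocytes were present in the DETC libraries. The summed basal keratinocyte markers reached 5.42% to 25.8% of the Thy1hi mean there, with library a the lowest and a median of 21.5%, while *Cdh1* reached 27.1% to 62.1% with a median of 49.3% and the same library lowest. Markers of Langerhans and other antigen-presenting cells were present as well. The sum of 6 such markers was 1356 to 3648 in DETC, 610.5 to 1514 in Thy1hi and 1064 to 2267 in Thy1- libraries. It was 697.5 to 1390 in Thy1hiYFP+ and 164 to 5968 in HFSC libraries. The part of RNA of keratinocytes or antigen-presenting cells in the DETC level of *Cdh1* was not tested. In these bulk libraries fewer cells of a type and less RNA per cell cannot be told apart.

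Between keratinocytes, *Cdh1* was higher in Thy1hi cells than in HFSCs (1.01 ± 0.27, adjusted p 0.0146) and higher in Thy1- cells than in HFSCs (1.11 ± 0.27, adjusted p 0.0151), in both without overlap (exact permutation p 0.0286, the smallest possible for 4 against 4). Neither was called when only the 2 populations entered the fit (adjusted p 0.0651 and 0.0837), and the second was not called without Thy1- replicate 1 (1.05, adjusted p 0.0590). Thy1hi and Thy1- cells differed by -0.11 ± 0.27 (adjusted p 0.999, exact permutation p 0.343). Thy1hiYFP+ cells stood at -0.58 relative to Thy1hi cells, with no overlap and an exact permutation p of 0.0286, the smallest possible for 3 against 4, but the adjusted p was 0.56.

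Among the genes most like *Cdh1* over the 20 libraries were *Itpkc* (an inositol phosphate kinase, r 0.969) and *F2rl1* (the protease-activated receptor PAR2, r 0.969). Without DETCs r was 0.964 and 0.973. *Itpkc* had means of 6347 in Thy1-, 6581 in Thy1hi, 3422 in Thy1hiYFP+, 2620 in HFSC and 2085 in DETC libraries.

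Other genes of the adherens junction also fell in DETCs. Of 12 tested among 13 listed partners of E-cadherin, 7 were lower than in Thy1hi cells, beside 16.6% of all genes, with a median log2 fold change of -0.79 beside 0.00 over all genes. The falls were led by *Cdh3*, the P-cadherin gene (226.6 ± 95.6 against 1084 ± 190, -2.42 ± 0.34, adjusted p 8.15e-06), *Nectin2* (-1.64, adjusted p 0.00376) and *Nectin1* (-1.45, adjusted p 0.00133), which encode adhesion molecules of the same junction. The count was 7 relative to Thy1- cells and 5 relative to HFSCs and to Thy1hiYFP+ cells, beside 15.2%, 18.5% and 17.6% of all genes, with medians of -0.99, -0.71 and -0.84. The *Nectin2* fall relative to Thy1- cells (-1.79, adjusted p 0.00225) rests on the restored row order of Thy1- replicate 4, in which *Nectin2* had been displaced.

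*Afdn*, for the actin-binding junction protein afadin, was highest in HFSCs, with 8365 ± 1634 and 2675 ± 543 in Thy1hi cells (log2 fold change of Thy1hi relative to HFSCs -1.65 ± 0.23, adjusted p 5.79e-05). *Vcl* (vinculin) was higher in Thy1hi cells than in HFSCs (1.09 ± 0.27, adjusted p 0.0103). Of 6 genes listed as repressors of *Cdh1* transcription, 3 were high enough to be tested. *Zeb1* had 7097 ± 4234 in DETCs and 83.2 ± 36.9 in Thy1hi cells (6.33 ± 0.44, adjusted p 7.64e-10), while *Snai2* had 83.79 ± 5.79 and 166.5 ± 24.5 (-0.97 ± 0.26, adjusted p 0.00508). *Zeb2* was called higher in DETCs against Thy1hiYFP+ cells (1.90, adjusted p 0.0170) and was not called against the other populations.

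*Itgb1* (ENSMUSG00000025809, chromosome 8 from 128685654 to 128733200), whose product is the common partner of α2, α5 and α9, had the highest level per kb of the 9 integrin genes in each keratinocyte population, with 337 normalized counts per kb in HFSCs, 415 in Thy1-, 686 in Thy1hi and 712 in Thy1hiYFP+ cells. Thy1hi libraries 1 to 4 had 2847.17, 2943.88, 2850.77 and 2564.07, and Thy1- libraries 1976.23, 1386.12, 1982.24 and 1433.7. Thy1hiYFP+ libraries had 2856.85, 1956.85 and 3898.73, HFSC libraries 1475.2, 1625.87, 1445.36 and 959.21, and DETC libraries 1, 2, 3, a and b had 1353.18, 1163.37, 1229.33, 1406.34 and 1131.34. Every Thy1hi library was above every Thy1-, HFSC and DETC library, and the DETC libraries were close to each other, with library a, the lowest in keratinocyte markers, the highest.

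*Itgb1* was lower in DETCs than in Thy1hi cells, with a log2 fold change of -1.16 ± 0.19 (adjusted p 6.29e-05), and than in Thy1hiYFP+ cells, with -1.16 ± 0.21 (adjusted p 0.000177). DETCs were not called against Thy1- cells (-0.42 ± 0.19, adjusted p 0.102) or HFSCs (-0.11, adjusted p 0.678). The former passed under scaling to the same total (-0.60, adjusted p 0.0328) and both passed under quantile normalization (-0.75 and -0.57, adjusted p 0.000937 and 0.00768). Relative to HFSCs it was higher in Thy1hi (1.05 ± 0.20, adjusted p 0.00135) and in Thy1hiYFP+ cells (1.05 ± 0.22, adjusted p 0.0031). The latter was not called when only the 2 populations entered the fit (adjusted p 0.0703).

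*Itga2* (ENSMUSG00000015533, chromosome 13 from 114833081 to 114932100) encodes the collagen-binding partner of β1. Its DETC libraries 1, 2, 3, a and b had 147.74, 115.93, 162.07, 28.81 and 106.89 normalized counts. Thy1hi libraries had 572.97, 645.41, 505.61 and 450.14, Thy1- libraries 518.08, 268.43, 410.96 and 327.07, HFSC libraries 369.38, 187.89, 367.75 and 505.88, and Thy1hiYFP+ libraries 332.93, 296.47 and 421.08. All DETC libraries lay below all keratinocyte libraries, and the 4 keratinocyte populations overlapped each other apart from Thy1hi and Thy1hiYFP+ cells. In DETCs it was lower than in Thy1hi cells, with a log2 fold change of -2.46 ± 0.37 (adjusted p 2.53e-05), and than in Thy1- cells, HFSCs and Thy1hiYFP+ cells, with -1.92, -1.78 and -1.82 (adjusted p 0.000453, 0.000739 and 0.00134). As a share of the Thy1hi mean, DETC libraries had 5.3% to 29.8% of *Itga2*, near the 5.42% to 25.8% of the keratinocyte markers and with the same library lowest. *Itgb1* in those libraries was 40.4% to 50.2% of the Thy1hi mean.

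*Itga5* (ENSMUSG00000000555, chromosome 15 from 103344286 to 103366763), encodes the fibronectin receptor chain. DETC libraries 1, 2, 3, a and b had 67.51, 98.64, 61.66, 97.41 and 100.88 normalized counts, HFSC libraries 139.67, 318.22, 134.7 and 95.99, and Thy1hiYFP+ libraries 160.49, 130.82 and 184.29. Thy1hi cells had a mean of 122.8 ± 26.5 and Thy1- cells of 97.5 ± 20.9. HFSC replicate 2 stood above all other libraries, and HFSCs and DETCs overlapped through HFSC replicate 4. It was called lower in DETCs than in HFSCs (-0.89 ± 0.28, adjusted p 0.0162) and than in Thy1hiYFP+ cells (-0.90 ± 0.31, adjusted p 0.0241), and not relative to Thy1hi (-0.53 ± 0.28, adjusted p 0.157) or Thy1- cells (-0.19, adjusted p 0.643). The call against HFSCs was lost without HFSC replicate 2 (-0.54, adjusted p 0.0887). That against Thy1hiYFP+ cells was lost without DETC 3, Thy1hiYFP+ 1 or Thy1hiYFP+ 3 (adjusted p 0.0561, 0.0699 and 0.102).

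*Itga9* (ENSMUSG00000039115, chromosome 9 from 118606690 to 118901003), for the tenascin-C and osteopontin receptor chain, was close to the limit of detection in every population. DETC libraries 1, 2, 3, a and b had 22.5, 25.42, 12.65, 12.35 and 7.21 normalized counts, and Thy1hiYFP+ libraries 1, 14.71 and 0.99. HFSC libraries had 3.21 to 8.08, Thy1hi libraries 1.1 to 17.12 and Thy1- libraries 4.92 to 10.41, so each population overlapped the DETCs. Of the 4 comparisons with DETCs, only that with Thy1hiYFP+ cells was called (1.98 ± 0.69, adjusted p 0.0282), and edgeR and DESeq2 did not call it (adjusted p 0.165 and 0.12). It was also lost without Thy1hiYFP+ 1 or Thy1hiYFP+ 3 (1.48 in both, adjusted p 0.162 and 0.160) and without DETC 1 or DETC 2 (adjusted p 0.0566 and 0.0634).

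Of the ligand genes, *Spp1* (osteopontin) had 56.91 ± 35.7 in DETCs and 4.285 ± 2.44 in Thy1hi cells (3.29 ± 0.78, adjusted p 0.00215), and *Npnt* (nephronectin) 63.69 ± 16.9 and 200.8 ± 62.0 (-1.62 ± 0.38, adjusted p 0.00186), the only 2 of 9 tested ligand genes called in that comparison, beside 36.6% of all genes. The median over the 9 was -0.30, beside 0.00 over all genes. *Tnc* (tenascin-C) had 1625 ± 381 in Thy1hiYFP+ cells, against 180.1 ± 108 in DETCs, 241.2 ± 91.2 in Thy1- cells and 658.5 ± 669 in HFSCs. It was higher than in Thy1- cells (2.82 ± 0.57, adjusted p 0.0242). Of the 9, 0 were called between Thy1hiYFP+ and Thy1hi cells, beside 0.0116% of all genes. In Thy1hiYFP+ cells 0 were called higher than in HFSCs, beside 5.24% of all genes. Relative to HFSCs, 5 of the 9 were lower in DETCs, beside 18.5% of all genes, with a median of -1.19 beside 0.02 over all genes, among them *Npnt* (-2.92, adjusted p 3.3e-06), *Tnc* (-1.64, adjusted p 0.0132) and the basement membrane collagen gene *Col4a2* (-1.64, adjusted p 0.000347).

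Among 15 tested genes for cytoplasmic activators and adaptors of integrins, DETCs differed from Thy1hi cells at 10, 6 higher and 4 lower, beside 19.9% and 16.6% of all genes (median 0.32, beside 0.00). The kindlin genes moved in opposite directions. *Fermt2* (kindlin-2) had 6758 ± 3628 in DETCs and 80.16 ± 30.0 in Thy1hi cells (6.32 ± 0.29, adjusted p 9.37e-12), *Fermt3* (kindlin-3, of blood cells) 368.1 ± 125 and 9.54 ± 6.09 (5.29 ± 0.49, adjusted p 3.62e-08), and *Fermt1* (kindlin-1, of keratinocytes) 117.8 ± 43.4 and 331.7 ± 111 (-1.53 ± 0.29, adjusted p 0.000289). The focal adhesion kinase gene *Ptk2* was lower in DETCs (-1.48 ± 0.21, adjusted p 8.8e-06) and its relative *Ptk2b* higher (3.67 ± 0.23, adjusted p 2.06e-10).

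Of 15 other integrin subunit genes tested among 17, 3 were higher and 5 lower in DETCs than in Thy1hi cells, beside 19.9% and 16.6% of all genes (median 0.34, beside 0.00). *Itgal* and *Itgb2*, which encode the leukocyte integrin LFA-1, were higher (1512 ± 430 against 15.13 ± 5.84, 6.59 ± 0.49, adjusted p 1.83e-09, and 383.6 ± 103 against 13.32 ± 11.9, 5.00 ± 0.48, adjusted p 6.46e-08). The remaining higher gene was *Itgb5* (275.8 ± 43.9 against 176.7 ± 87.3, 0.75 ± 0.28, adjusted p 0.0382), with overlapping libraries. *Itgb3* was not called against Thy1hi cells. It was higher in DETCs than in Thy1- cells, HFSCs and Thy1hiYFP+ cells (1.85, 2.66 and 1.96, adjusted p 0.00674, 0.000264 and 0.00738). *Itga6*, which belonged to the sort gate, its hemidesmosome partner *Itgb4* and *Itga3*, another partner of β1, were lower (-2.52, -2.43 and -2.42, adjusted p 6.44e-06, 1.78e-06 and 3.61e-06).

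*Itgav* (ENSMUSG00000027087, chromosome 2 from 83724397 to 83806916) encodes αv, the chain shared by αvβ6 and αvβ8, and was higher in DETCs than in every keratinocyte population. DETC libraries 1, 2, 3, a and b had 2473.48, 3054.86, 2445.22, 8079.95 and 4892.86 normalized counts. Thy1hi libraries had 1434.07, 1334.29, 1428.23 and 1243.71, Thy1- libraries 1331.67, 1116.53, 1242.35 and 1113.19, HFSC libraries 1218.95, 1058.93, 1148.16 and 921.38, and Thy1hiYFP+ libraries 1040.67, 813.55 and 1290.99. Every DETC library was above every keratinocyte library, and libraries a and b were the highest. The mean of 4189 ± 2390 in DETCs against 1360 ± 90.0 in Thy1hi cells gave a log2 fold change of 1.46 ± 0.26 (adjusted p 0.000148, exact permutation p 0.00794). It was 1.64 relative to Thy1- cells (adjusted p 5.04e-05), 1.79 relative to HFSCs (adjusted p 1.45e-05) and 1.86 relative to Thy1hiYFP+ cells (adjusted p 2.74e-05). The keratinocyte populations were not called against each other. Of the exon bases of *Itgav*, 5.9% are shared with *Gm13684* on the opposite strand, and the strand used in counting is not given in the sources used here, so reads of those bases cannot be assigned.

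*Itgb6* (ENSMUSG00000026971, chromosome 2 from 60598292 to 60722643), for the epithelial partner of αv, went the other way. DETC libraries 1, 2, 3, a and b had 56.75, 93.56, 62.45, 17.84 and 80.47 normalized counts, Thy1hi libraries 422.82, 383.3, 301.58 and 300.74, and Thy1- libraries 261.47, 181.65, 253.99 and 94.27. HFSC libraries had 135.05, 518.06, 215.95 and 519.89, and Thy1hiYFP+ libraries 130.58, 183.45 and 163.48. All DETC libraries lay below all keratinocyte libraries, the lowest again being a, and Thy1hi libraries lay above all Thy1- and Thy1hiYFP+ libraries. It was lower in DETCs than in each, with log2 fold changes of -2.65 ± 0.43 relative to Thy1hi cells (adjusted p 5.67e-05), -2.43 ± 0.43 relative to HFSCs (adjusted p 0.000152), -1.73 ± 0.43 relative to Thy1- cells (adjusted p 0.00373) and -1.51 ± 0.47 relative to Thy1hiYFP+ cells (adjusted p 0.015). The last of these was lost without Thy1hiYFP+ 2 (-1.40, adjusted p 0.0543). Over the 20 libraries, log2 *Itga2* and log2 *Itgb6* had an r of 0.824, and of 0.283 over the 15 without DETCs. The DETC libraries had 5.07% to 26.6% of the Thy1hi mean of *Itgb6*, again near the share of the keratinocyte markers, and the part of keratinocyte RNA in it was not tested.

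*Itgb8* (ENSMUSG00000025321, chromosome 12 from 119158022 to 119238802), for the other partner of αv among these genes, had its own order. HFSC libraries had 197.39, 326.91, 269.4 and 411.99 normalized counts, Thy1- libraries 126.48, 281.16, 185.37 and 203.29, DETC libraries 1, 2, 3, a and b 78.27, 122.03, 91.71, 42.53 and 80.47, Thy1hiYFP+ libraries 58.81, 99.08 and 58.46, and Thy1hi libraries 20.98, 39.52, 29.26 and 73.73. Thy1hi libraries lay below all Thy1- and HFSC libraries, and Thy1hi replicate 4 overlapped the DETC and the Thy1hiYFP+ libraries. DETCs were lower than HFSCs (-1.87 ± 0.34, adjusted p 0.0002) and Thy1- cells (-1.27 ± 0.34, adjusted p 0.00658) and higher than Thy1hi cells (1.08 ± 0.34, adjusted p 0.0172). The fall relative to Thy1- cells was lost when DETC a and b were left out (-0.99, adjusted p 0.0528). The rise relative to Thy1hi cells was lost without DETC 2, Thy1hi 1 or Thy1hi 3 (adjusted p 0.0504, 0.0863 and 0.0541).

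Which of these genes differed between keratinocytes sorted by their level of Thy1 was read from Thy1hi and Thy1- cells, both α6+Sca1+. *Itgb8* was the only 1 of the 10 that was called, as lower in Thy1hi cells, where 0.337% of all genes were called and 0.221% as lower. Its mean was 40.87 ± 23.2 in Thy1hi and 199.1 ± 63.8 in Thy1- cells, a log2 fold change of -2.35 ± 0.36 (adjusted p 0.00703, exact permutation p 0.0286), and it was called in all 19 alternative fits. Its level in Thy1- cells was not called different from that in HFSCs (-0.60, adjusted p 0.312).

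The libraries of these 2 populations with the same replicate number deviated together (r 0.293 to 0.716 in 4 pairs, and -0.652 to 0.514 in the 12 combinations of different numbers). With the replicate number as a block, 3 of the 10 genes were called, where 6.61% of all genes were. Of the 3, 2 were higher and 1 lower in Thy1hi cells, beside 3.42% and 3.19% of all genes. *Itgb1* was higher (1695 ± 329 in Thy1- and 2801 ± 164 in Thy1hi cells, 0.74 ± 0.20, adjusted p 0.17 without and 0.00457 with the block, exact permutation p 0.0286). *Itgb6* was higher too (197.8 ± 77.9 and 352.1 ± 61.0, 0.92 ± 0.46, adjusted p 0.721 without and 0.0218 with the block, exact permutation p 0.0286). *Itgb8* kept its fall (adjusted p 0.000563). *Itga2* was higher in the Thy1hi library of each of the 4 pairs, with an adjusted p of 0.954 without and 0.0909 with the block, and *Cdh1* was not called by either (adjusted p 0.677 with the block).

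**Figure D4:**
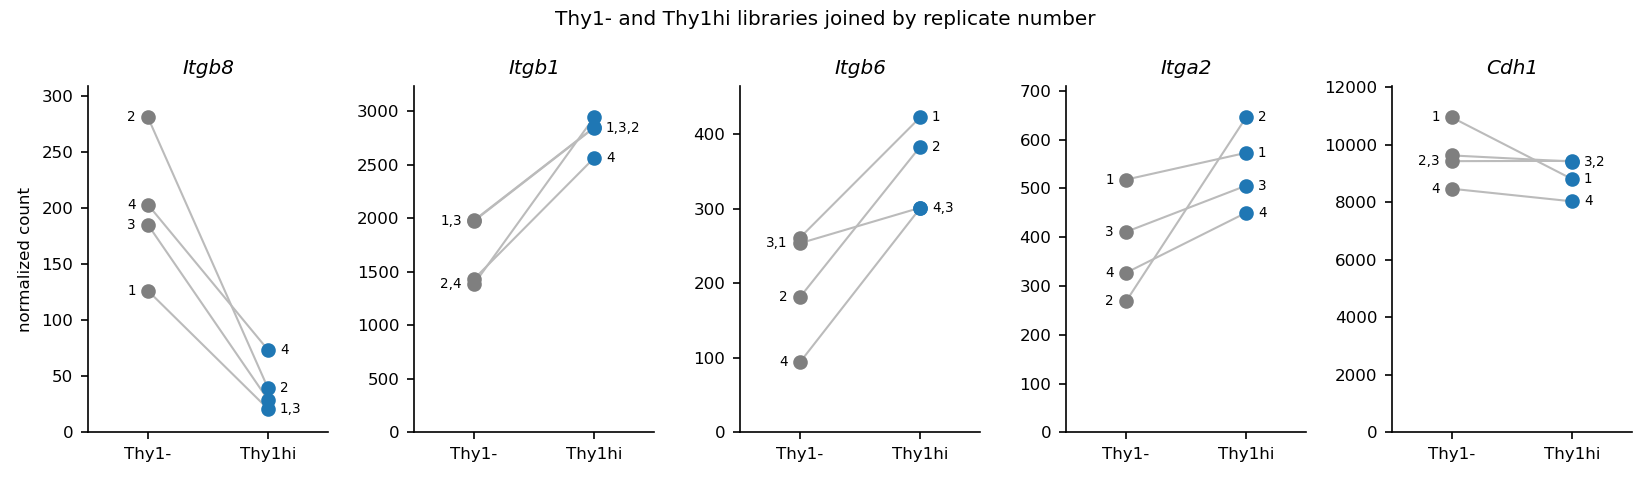
Normalized counts of *Itgb8*, *Itgb1*, *Itgb6*, *Itga2* and *Cdh1* in Thy1- and Thy1hi libraries, with lines joining libraries of the same replicate number, which is printed beside the points. In all 4 pairs *Itgb8* is lower and *Itgb1*, *Itgb6* and *Itga2* are higher in the Thy1hi library, while at *Cdh1* the lines are nearly level or go down.

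The proportion of the *Itgb6* and *Itgb8* transcripts, which encode alternative partners of αv, was highest in Thy1hi cells. The ratio of *Itgb6* to *Itgb8*, per kb within each library, was 6.34 to 31.3 (median 15.6) in Thy1hi libraries, 0.721 to 3.22 (median 1.56) in Thy1- libraries, 2.88 to 4.35 in Thy1hiYFP+ libraries, 1.06 to 2.46 in HFSCs and 0.652 to 1.56 in DETCs. The 4 Thy1hi ratios lay above those of all other libraries. Over the 15 libraries without DETCs, log2 *Itgb1* and log2 *Itgb8* had an r of -0.884, a description over libraries of shared populations. Basal keratinocyte markers summed to 183900 to 255500 in Thy1hi and 86320 to 153200 in Thy1- libraries, so in this comparison they were high where *Itgb1* and *Itgb6* were. In Thy1hiYFP+ libraries they summed to 158500 to 265800, beside a mean *Itgb1* of 2904 but a mean *Itgb6* of 159.2. HFSC markers summed to 682.3 to 986.6 in Thy1hi and 1906 to 2131 in Thy1- libraries and differentiating keratinocyte markers to 8330 to 26310 and 25780 to 39410, the first without overlap and the second with a slight one, and both ran lower in Thy1hi libraries, as *Itgb8* did. The part of these cells in the differences was not tested.

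**Figure D5:**
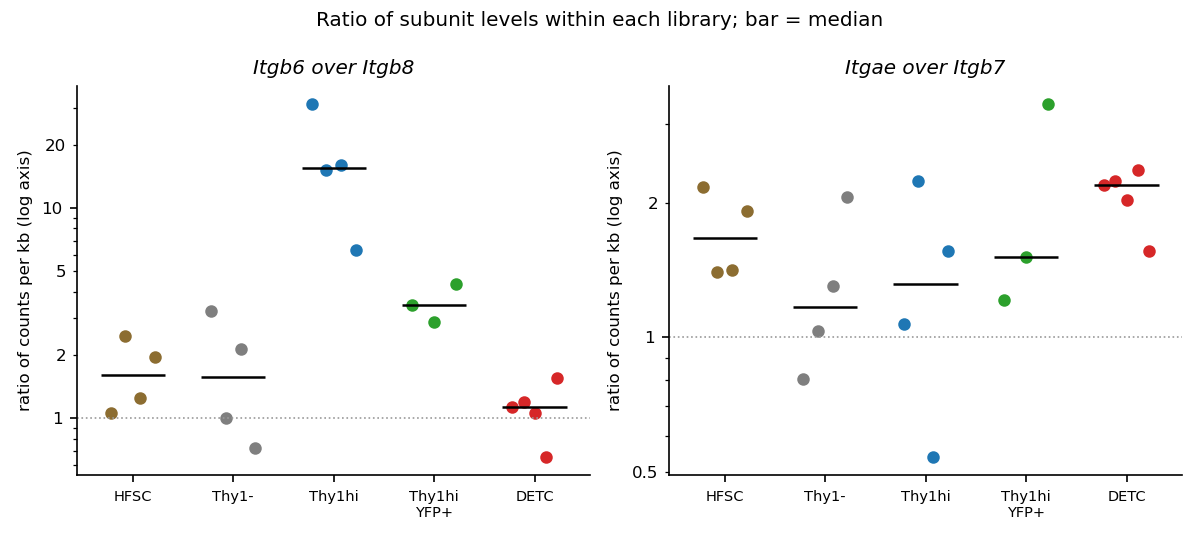
Ratio of *Itgb6* to *Itgb8* and of *Itgae* to *Itgb7* in each library, both in normalized counts per kb of exon on a log axis, with a bar at the median of each population. The *Itgb6* to *Itgb8* ratio is highest in Thy1hi libraries (median 15.6), and the *Itgae* to *Itgb7* ratio has a median of 2.19 in DETCs.

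Against HFSCs, 3 of the 10 genes were called in Thy1hi cells, where 13.4% of all genes were (6.51% higher and 6.86% lower). *Cdh1* and *Itgb1* were higher, as above, and *Itgb8* was lower (-2.95 ± 0.36, adjusted p 1.36e-05). In Thy1- cells only *Cdh1* was called, as higher, where 6.08% of all genes were called and 2.56% as higher. In Thy1hiYFP+ cells *Itgb1* (higher) and *Itgb8* (-2.04 ± 0.39, adjusted p 0.00153) were called, where 11.6% of all genes were, 5.24% higher and 6.33% lower. Without HFSC replicate 4, *Itgb7* was also lower in Thy1hiYFP+ cells than in HFSCs (-1.44, adjusted p 0.0124). These are low values, 3.96 to 13.93 against 17.38 to 22.45 normalized counts. The T cell marker sum ran lower as well, with 118.6 to 212.1 against 283.95 to 373.63 in HFSC libraries 1 to 3. The part of T cell RNA in the difference was not tested.

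Between the YFP-marked keratinocytes and Thy1hi cells, limma, edgeR and DESeq2 called 0 of the 10 genes, where limma called 0.0116% of all genes. The libraries did not overlap at *Cdh1*, *Itga2* and *Itgb6*, which were lower in every Thy1hiYFP+ library (-0.58, -0.64 and -1.14, adjusted p 0.56, 0.701 and 0.506, exact permutation p 0.0286 each). The share of all genes without overlap was not determined. *Itgb8* had 72.12 ± 23.4 and 40.87 ± 23.2 (0.91, adjusted p 0.506). Against Thy1- cells, limma and edgeR called none of the 10, where limma called 0.761% of all genes. DESeq2 called 2 there, where it called 3.21% of all genes. Those 2 were *Itgb8* (-1.44 ± 0.39, adjusted p 0.0861 by limma and 0.0136 by DESeq2) and *Itgb1* (0.74 ± 0.22, adjusted p 0.11 by limma and 0.0236 by DESeq2). Both differed in the direction they had in Thy1hi cells, and the comparisons share the Thy1- libraries.

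Latent TGF-β is what αvβ6 and αvβ8 bind, and 9 genes of a list drawn up around it were tested. *Tgfb1* had 1370 ± 530 in DETCs and 354.3 ± 72.4 in Thy1hi cells (1.90 ± 0.34, adjusted p 0.000177), and *Nrros*, whose product anchors latent TGF-β on immune cells, 78.91 ± 19.9 and 16.3 ± 11.1 (2.34 ± 0.51, adjusted p 0.000999). *Ltbp4*, for a matrix anchor of latent TGF-β, was lower in DETCs (-1.75 ± 0.31, adjusted p 0.000157). In all, 2 of 9 genes were higher and 3 lower, beside 19.9% and 16.6% of all genes (median 0.24, beside 0.00). Between Thy1hi and Thy1- cells, 1 of the 9 was called: *Ltbp1*, for another anchor, with 99.89 ± 18.8 and 333.4 ± 59.4 (-1.73 ± 0.31, adjusted p 0.0199), without overlap and in the direction of *Itgb8*. With the replicate block 3 of the 9 were called, 1 higher and 2 lower, beside 3.42% and 3.19% of all genes: *Tgfb1* (0.87, adjusted p 0.00269), *Ltbp1* (adjusted p 0.000159) and *Ltbp2* (-1.18, adjusted p 0.0104), of which *Tgfb1* and *Ltbp2* had an adjusted p of 0.539 and 0.627 without the block. In HFSCs 3 *Ltbp* genes were higher than in Thy1hi cells. The log2 fold change of Thy1hi cells relative to HFSCs was -5.13 ± 0.54 for *Ltbp2* (30.33 ± 10.9 against 1050 ± 157, adjusted p 2.34e-06), -2.05 ± 0.31 for *Ltbp1* and -1.63 ± 0.25 for *Ltbp3* (adjusted p 0.000134 and 0.00013), 3 of 9 genes lower, beside 6.86% of all genes. In Thy1- cells, where *Itgb8* was not called against HFSCs, *Ltbp2* and *Ltbp3* were lower too (-3.95 and -1.48, adjusted p 0.000134 and 0.000968), while *Ltbp1* was not called. In Thy1hiYFP+ cells *Ltbp2* and *Ltbp3* were also lower than in HFSCs (-3.98 and -1.85, adjusted p 0.000108 and 9.33e-05).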

How the data were processed

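Cells of 5 populations were sorted by integrin α6, Sca1, CD34 and Thy1, and bulk RNA-seq libraries were made with Illumina kits (a stranded total RNA kit is named too). The authors aligned single reads to mm10 with STAR, counted them per Ensembl gene with featureCounts and deposited DESeq2-normalized counts, a signal per gene rounded to 2 decimals. Whole reads were recovered by the size factor of each library (0.729 to 1.43), with 100% of values whole within the rounding. In Thy1- replicate 4, 3212 genes stood in the order of names with hyphens ignored and were put back, none of the 10 genes among them.

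Genes at 10 or more in at least 3 libraries (17204) were fitted with limma 3.58.1 (lmFit, eBayes with trend) in R 4.3.3 on the log2 of value plus a pseudocount of 1. A single fit over the 20 libraries estimated a mean for each population. A fold change on this scale understates the change of low genes. The test was two-sided, with Benjamini-Hochberg adjustment over all genes tested and a threshold of 0.05. The exact permutation test was on mean log2 values. The 10 genes and all gene lists were chosen with earlier results of these data known. Named genes are the 10, up to 3 called genes with the largest rise and fall per list and comparison (of which those that bear on the text are printed), and the 3 genes with the highest correlation to *Itgae*, *Itgb7* and *Cdh1*, of which 1 is not reported here. Exon lengths are unions of GENCODE exons on GRCm38.

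Pairing was read from correlations of deviations from population means, with a replicate number paired where every correlation was over 0.1. That held for Thy1hi with Thy1- and for DETC with HFSC only, though in both some combinations of different numbers correlated as much. Alternatives were other pseudocounts (0.1 and 10), testing without a filter or above a mean of 50, equal totals, quantile normalization, edgeR 4.0.16 and DESeq2 1.42.0 on recovered reads, only 2 populations, a replicate block, each library left out, and, added after seeing the data, the deposited row order, DETC a and b left out, and replicate 4 of HFSC, Thy1hi and Thy1- left out. The scripts were tested on simulated data. Other tools were Python 3.11.15, numpy 2.4.6, pandas 2.3.3, scipy 1.17.1 and matplotlib 3.10.9.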

Additional observations from a re-analysis of the deposited data

Results flagged for a closer look

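*Cdh1* in HFSC replicate 4 had 2292.58 normalized counts, while the other 3 HFSC libraries had 5172.44 to 5763.85. The gap to the nearest of them was 0.83 of the whole range, just above the critical value of Dixon's test for 4 samples. It was the 1 value so marked among 40 sets of libraries (each of the 10 genes in the 4 populations of 4 or 5 libraries), where chance marks about 5%. This library was also the least like the others of its population over all genes (r 0.901 with their mean), and had the lowest *Itgae*, *Itgb7*, *Itgb1*, *Itga5* and *Itgav* and the highest *Itga2*, *Itgb6* and *Itgb8* of the 4 HFSC libraries. Some of its marker sums were the lowest too, but markers of endothelial cells summed to 58.16, against 31 to 47.79. Melanocyte markers summed to 264.15, within the 109.67 to 285.65 of the others. Basal keratinocyte markers summed to 70923, against 149410 to 164970 in the other 3, and HFSC markers to 5771, against 7710 to 9218. Markers of antigen-presenting cells summed to 164, against 2992 to 5968. The part of this difference in cell types in its *Cdh1* level was not tested.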

How the results depend on the processing

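Of the 100 comparisons of 1 of the 10 genes between 2 populations, 37 were called, and of their 789 values under alternatives 761 kept both direction and call, 28 lost the call and none changed direction. For 28 of the 37, no alternative lost the call. The count of genes called between Thy1hi and Thy1- cells rose from 1 to 2 by DESeq2 and to 3 with the replicate block, which pairs the libraries. The count for Thy1- cells relative to HFSCs fell from 1 to 0 with only the 2 populations and with the replicate block, and lay between 0 and 1 with each library left out. For Thy1hiYFP+ relative to Thy1- cells it rose from 0 to 1 by quantile normalization, to 2 by DESeq2 and to 1 without replicate 4 of HFSC, Thy1hi and Thy1-, and lay between 0 and 1 with each library left out. For Thy1hiYFP+ cells relative to HFSCs it fell from 2 to 1 with only the 2 populations and with the replicate block. The difference of *Cdh1* between DETCs and HFSCs changed sign, from -0.43 (without HFSC replicate 4) to 0.074 (without DETC a) with each library left out, and that of *Nectin2* between DETCs and Thy1- cells became 0.35 in the deposited row order. HFSCs share only a number with the keratinocyte populations, so the block there pairs nothing known, and a call lost under it does not mark a weaker effect. Scaling to equal totals moved the median log2 fold change of all genes in Thy1- cells relative to HFSCs from 0.04 to 0.25, and quantile normalization that of DETCs relative to Thy1hiYFP+ cells from 0.05 to -0.21. Of the other 63 comparisons, 50 were called in no fit, and 15 of these changed sign in some alternative. At *Itga9* only 7 libraries reached 10 normalized counts.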
